A study of Homo sapiens with 12 samples.

Results

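The MAGE genes (melanoma antigen genes) form a family of 27 members among the 18157 protein-coding genes, and the 36502 genes in all, of the count table. Members were taken by name: every protein-coding gene whose symbol is MAGE followed by a subfamily letter A, B, C, D, E, F, H or L. The table held 11 MAGEA, 7 MAGEB and 3 MAGEC genes, called germline-restricted here, and 3 MAGED genes, MAGEE1, MAGEF1 and MAGEH1, called broadly expressed. All 21 germline-restricted members lie on chromosome X, as do the broadly expressed members other than MAGEF1, which lies on chromosome 3.

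RNA was sequenced from HT1080, a human fibrosarcoma cell line, in 2 clones made to mark DNA that touches the nuclear lamina. The GFP clone carries the m6A-Tracer, in which GFP is joined to a domain that recognises methylated adenine in DNA, and the VP16 clone carries the m6A-Tracer-VP16, which adds a transcription activation domain. Both clones carry Dam-LaminB1, an adenine methyltransferase fused to lamin B1 that is stable only in the presence of Shield1. In the uninduced condition cells grew for 4 days with doxycycline at 50 ng/ml. In the tracer condition doxycycline was present for 3 days and absent for the last 24 h, which switches the tracer on, and in the tracer with Dam-LaminB1 condition 500 nM Shield1 was added during those 24 h. Each of the 6 groups had 2 libraries. Each construct is represented by 1 clone, so clone, construct and any tracer made without induction cannot be told apart. Tracer expression and doxycycline withdrawal change together, as do Shield1, the fusion and the methylation it deposits. The labels do not say whether both libraries of a group are from different cultures, and a p-value here measures spread between libraries that may be technical replicates.

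MAGE proteins share a homology domain through which they bind RING ubiquitin ligases and direct them to substrates. The MAGEA, MAGEB and MAGEC genes are normally expressed in the testis, are silenced by promoter DNA methylation in somatic tissues, and become active in many tumours, which is why their products are called cancer-testis antigens. The MAGED, MAGEE, MAGEF and MAGEH genes are expressed in many tissues.

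Most promoter windows of the germline-restricted members held a short sequence that was in no window of the broadly expressed members. RefSeq promoter windows on GRCh38.p14, 300 bases from 250 before to 50 after an annotated start, were found for 18 of 21 germline-restricted members (25 windows) and 5 of 6 broadly expressed members (8 windows); MAGEA1, MAGEA10, MAGEB17 and MAGEH1 had none. The letters CCGGATGT, searched on both strands, stood in 64.0% of the germline-restricted windows, in 10 of 18 genes, and in none of the 8 broadly expressed windows, against 0.701% of all 35116 windows and 2.75% of those on chromosome X. This motif was picked after the windows had been looked at, so its share is a description, and members of a subfamily share ancestry. CGGAAG, letters that ETS transcription factors can bind, stood in 32.0% of germline-restricted and 37.5% of broadly expressed windows, against 19.5% of all windows. Both motifs hold the letters CGGA, and on opposite strands they could overlap at their CGG letters. Binding of ETS factors to either motif was not tested. The median number of CpG dinucleotides per window was 13 for germline-restricted and 16 for broadly expressed members, beside 14 over all windows.

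The 150 bases before the start, of the window listed as number 1 for each gene, are shown for some of the members. MAGEC1 and MAGEB6 differed between the clones, and MAGEC2 and MAGEA12 differed between sets of libraries. MAGEA3 is an abundant member called in neither comparison over all 12 libraries. MAGEA4, counted almost only in the GFP clone, is shown as a description. Capitals mark CCGGATGT and CGGAAG on either strand. The stretch of MAGEC1 lies at chrX:141903744-141903893 on the plus strand and that of MAGEC2 at chrX:142205291-142205440 on the minus strand. Those of MAGEA4 (chrX:151912324-151912473), MAGEB6 (chrX:26192290-26192439), MAGEA12 (chrX:152733607-152733756) and MAGEA3 (chrX:152698644-152698793) are on the plus strand, all on GRCh38.p14.
MAGEC1: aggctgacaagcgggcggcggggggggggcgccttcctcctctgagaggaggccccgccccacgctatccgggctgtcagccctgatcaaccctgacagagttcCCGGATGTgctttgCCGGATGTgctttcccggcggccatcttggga
MAGEC2: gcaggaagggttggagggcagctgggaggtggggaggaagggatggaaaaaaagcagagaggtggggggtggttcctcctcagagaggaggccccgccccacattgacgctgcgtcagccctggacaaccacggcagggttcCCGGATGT
MAGEA4: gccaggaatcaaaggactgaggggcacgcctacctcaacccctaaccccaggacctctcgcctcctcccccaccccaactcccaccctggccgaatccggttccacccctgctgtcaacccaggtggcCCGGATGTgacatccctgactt
MAGEB6: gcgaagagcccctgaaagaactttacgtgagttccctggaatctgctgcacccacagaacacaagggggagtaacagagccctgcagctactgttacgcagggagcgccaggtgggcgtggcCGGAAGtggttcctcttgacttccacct
MAGEA12: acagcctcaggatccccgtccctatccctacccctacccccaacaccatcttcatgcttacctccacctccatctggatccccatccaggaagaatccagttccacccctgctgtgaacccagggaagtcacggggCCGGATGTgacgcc
MAGEA3: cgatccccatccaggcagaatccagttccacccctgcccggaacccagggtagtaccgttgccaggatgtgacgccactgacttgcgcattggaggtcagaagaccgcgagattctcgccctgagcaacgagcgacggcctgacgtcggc

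MAGEC1 has 2 copies of CCGGATGT in this stretch, and MAGEC2, MAGEA4 and MAGEA12 have 1 each. MAGEB6 has none and carries 1 CGGAAG, and MAGEA3 has neither. The windows of MAGEA3 and MAGEA6 were identical over all 300 bases, whereas those of MAGEC1 and MAGEC2, neighbouring genes of 1 subfamily, matched at 60.2% of aligned positions.

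Library totals ranged from 18774905 to 24827396 counts, and the 27 members together held 0.0649% to 0.0824% of them. Deviations from the group means correlated within each of the 2 index sets, the sets of 6 libraries that reuse the same 6 index sequences. The GFP_tracer and GFP_tracer_Dam libraries of index set 1 stood apart from the other 10 on the leading principal component (-78.2 and -87.0, others -16.2 to 41.0), with DDIT3, a stress-induced transcription factor gene, at 93.6 and 77.4 CPM (counts scaled to library size, with TMM factors) against 4.74 to 8.12 elsewhere. LMNB1, the gene of lamin B1, was at 36.9 and 29.5 CPM in those libraries and 122 to 203 CPM in the others; its RNA does not check Shield1, which acts on the protein. All 9 mesenchymal markers were expressed, and VIM averaged 3393 CPM; of these 1, MMP2, was called between clones (159 ± 33.7 CPM in the GFP clone and 93.7 ± 14.7 CPM in the VP16 clone, SD, n = 6; edgeR adjusted p = 0.0074). The 6 epithelial markers summed to 4.09 to 15.5 CPM in the GFP clone and 2.99 to 5.66 CPM in the VP16 clone, with ESRP1 at a log2 difference of -2.70 (edgeR adjusted p = 0.20). ESRP1 varied widely in the GFP clone (3.03 ± 4.57 CPM, SD, n = 6, up to 10.7 CPM). The germ cell markers DDX4, DAZL, SYCP3 and PIWIL1 summed to 0.236 to 0.801 CPM, which overlapped between clones. The 4 melanocyte markers summed to 40.9 to 68.2 CPM in the GFP clone and 24.7 to 33.9 CPM in the VP16 clone, nearly all of it DCT, with TYR at 1 count in all libraries. DCT was called lower in the VP16 clone (log2 difference -0.93, edgeR adjusted p = 0.013). The part of these markers in the MAGE differences between clones was not tested. In bulk RNA, fewer cells that express a gene and less of its RNA per cell cannot be told apart.

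Germline-restricted MAGE genes were a large part of the family's RNA in these cells. Their summed level was 446 to 620 CPM per library, against 182 to 225 CPM for the broadly expressed members, and they made up 70.2% to 75.7% of the family's CPM in each of the 12 libraries. The 2 libraries that stood apart had germline-restricted sums of 498 and 446 CPM, the lowest of the 12, and the other 10 ranged from 521 to 620 CPM. Of the 27 members, 17 passed edgeR's filter on low counts (12 germline-restricted and 5 broadly expressed) and were tested.

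Per kilobase of exon, MAGEB2 had the highest level, at 100.2 ± 12.8 CPM per kb (SD over 12 libraries). MAGEB2 is a testis antigen that binds RNA. After it came MAGEA12 (46.7), MAGEA1 (46.2) and MAGEA3 (41.1 CPM per kb), X-linked antigens of the MAGEA cluster, and MAGEF1, an intronless broadly expressed gene whose product works with the ligase NSE1, at 40.1 CPM per kb. MAGEA6 followed at 32.8 CPM per kb. MAGEA3 and MAGEA6 are near-identical partners of the ligase TRIM28.

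The middle of the order held MAGED2 (18.9 CPM per kb), mutated in transient antenatal Bartter syndrome, MAGEA11 (13.5), a coregulator of the androgen receptor, MAGED1 (12.6), a binding partner of the neurotrophin receptor p75NTR, and MAGEB17 (11.9). Far below stood MAGEC2 (2.91), MAGEH1 (2.76), MAGEC1 (1.80), MAGEE1 (1.74), MAGEA2B (0.950), MAGEB6 (0.347) and MAGEA4 (0.0504 CPM per kb). Neighbours in this order overlapped in their ranges over the 12 libraries in 12 of 16 cases. The 4 gaps lay below MAGEB2, between MAGED2 and MAGEA11, between MAGEB17 and MAGEC2, and between MAGEA2B and MAGEB6. The top 4 and the bottom 3 of these 17 were germline-restricted, and the broadly expressed members lay between, from 1.74 to 40.1 CPM per kb, as the plot of levels per kilobase shows.

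**Figure D1:**
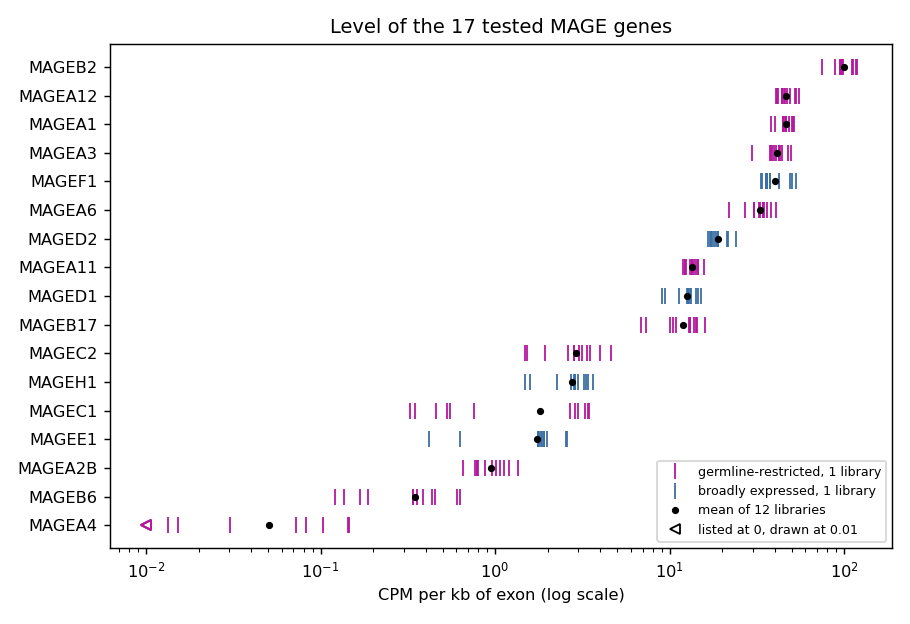
Level of each of the 17 tested MAGE genes in CPM per kb of exon (log axis), 1 tick per library and a dot for the mean of 12 libraries. MAGEB2 lies alone at the top (mean 100.2), and MAGEC1 splits into 2 clusters of 6 libraries.

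The 10 members that did not pass the filter were MAGEA2, MAGEA8, MAGEA9, MAGEA10, MAGEB3, MAGEB4, MAGEB10, MAGEB16, MAGEC3 and MAGED4B. Of these, 8 had fewer than 10 counts over all 12 libraries. MAGEC3 had 55 counts and MAGEA2 had 42. The counts of some members depend on how reads shared with near-identical genes were assigned. In GENCODE v29 transcripts, 96.4% of the 50-base windows of MAGEA2 and 88.1% of those of MAGEA2B also occurred in another gene, as did 56.5% for MAGEA3, 53.9% for MAGEA6, 94.0% for MAGEA9 and 96.3% for MAGED4B. The share was 13.8% for MAGEA12, 8.37% for MAGEB6, 2.69% for MAGEA4 and 0.383% for MAGEC1.

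The clones were compared over all 3 conditions, 6 libraries against 6. MAGEC1 was higher in the VP16 clone, and MAGEB6 and MAGEA4 were lower. These 3 of 17 tested members passed the threshold of edgeR's quasi-likelihood test (Benjamini-Hochberg adjusted p under 0.05), and 7.64% of all 17262 tested genes did (2.62% higher and 5.01% lower in the VP16 clone). All 3 are germline-restricted, leaving 9 of 12 germline-restricted and 5 of 5 broadly expressed members without a call. MAGEA4 was tested only because its GFP libraries passed the filter on low counts, and without it 2 of 16 members were called, so nothing is read from the share of members. The same 3 members were those whose CPM ranges did not overlap between clones, which was so for 10.7% of all tested genes. For MAGEB6 the gap was narrow, from 0.664 CPM in the highest VP16 library to 0.696 CPM in the lowest GFP library. Its raw counts overlapped, with up to 16 in the VP16 clone and as few as 15 in the GFP clone.

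MAGEC1, also known as the antigen CT7, lies at chrX:140991680-140997174 on GRCh37. In the VP16 clone its level in index sets 1 and 2 was 13.9 and 14.5 CPM uninduced, 14.7 and 12.7 CPM with the tracer, and 11.5 and 12.3 CPM with the tracer and Dam-LaminB1. In the GFP clone the corresponding levels were 1.95 and 1.39, 3.24 and 1.49, and 2.36 and 2.28 CPM. Every VP16 library was thus above every GFP library, with a gap from 3.24 to 11.5 CPM. The log2 difference was 2.66 ± 0.19 (SE), a 6.32-fold higher level in the VP16 clone (edgeR adjusted p = 0.00026). Over the 6 pairs of libraries of the same condition and index set it ranged from 2.15 to 3.30. The call held when any 1 of the 12 libraries was left out (2.51 to 2.88) and without both libraries that stood apart (2.88, adjusted p = 0.00028).

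The MAGEC1 difference was present before induction. Between the uninduced clones it was 3.08 ± 0.34 on the log2 scale, 8.48-fold higher in the VP16 clone (edgeR adjusted p = 0.015). It was the only member called in that comparison, where 0.278% of tested genes were called (0.0753% higher and 0.203% lower). When the index set was a block, it was again the only member called (edgeR adjusted p = 0.0034), among 1.89% of tested genes (0.475% higher and 1.42% lower); that call ended without the GFP_uninduced library of index set 2 (0.053). With 2 libraries against 2, leaving out any 1 of the 4 uninduced libraries ended the call (adjusted p from 0.10 to 0.18), as did a fit of these groups alone (0.067), while the log2 difference stayed between 2.85 and 3.32.

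MAGEA4, whose product binds the ubiquitin ligase RAD18, lies at chrX:151080981-151093642. It was nearly absent. The GFP libraries of index sets 1 and 2 held 5 and 8 counts uninduced, 9 and 2 with the tracer, and 11 and 6 with Dam-LaminB1. The VP16 libraries held 1 count in the tracer and 1 in the tracer with Dam-LaminB1 library of index set 1, and 0 in the other 4. The totals were 41 and 2 counts, a ratio of GFP to VP16 clone of 19.5 per counted read (exact 95% interval 5.05 to 166, counting error only). MAGEA4 passed the filter through its GFP libraries alone, and did not pass without the 2 that stood apart, which held 0.442 and 0.448 CPM. A gene tested on this ground had to differ, so its values are a description and its call is no support for a clone difference. Its fitted log2 difference of -4.20 ± 0.82 depends on edgeR's prior count, and the edgeR adjusted p was 0.025. The call ended in 9 of 12 fits that left out 1 library (adjusted p up to 0.072), though not with the index set as a block (0.0096).

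MAGEB6, at chrX:26210557-26213763, was also low. Its counts in the GFP libraries of index sets 1 and 2 were 20 and 19 uninduced, 25 and 15 with the tracer, and 29 and 20 with Dam-LaminB1. In the VP16 libraries they were 6 and 8, 5 and 6, and 16 and 15. The GFP clone had 0.696 to 1.23 CPM and the VP16 clone 0.236 to 0.664 CPM. The log2 difference was -1.25 ± 0.23, so the VP16 clone was 2.38-fold lower (edgeR adjusted p = 0.014). The call ended without the VP16_uninduced library of index set 1 (0.051) or the VP16_tracer library of index set 1 (0.052), and held in the other 10 such fits.

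**Figure D2:**
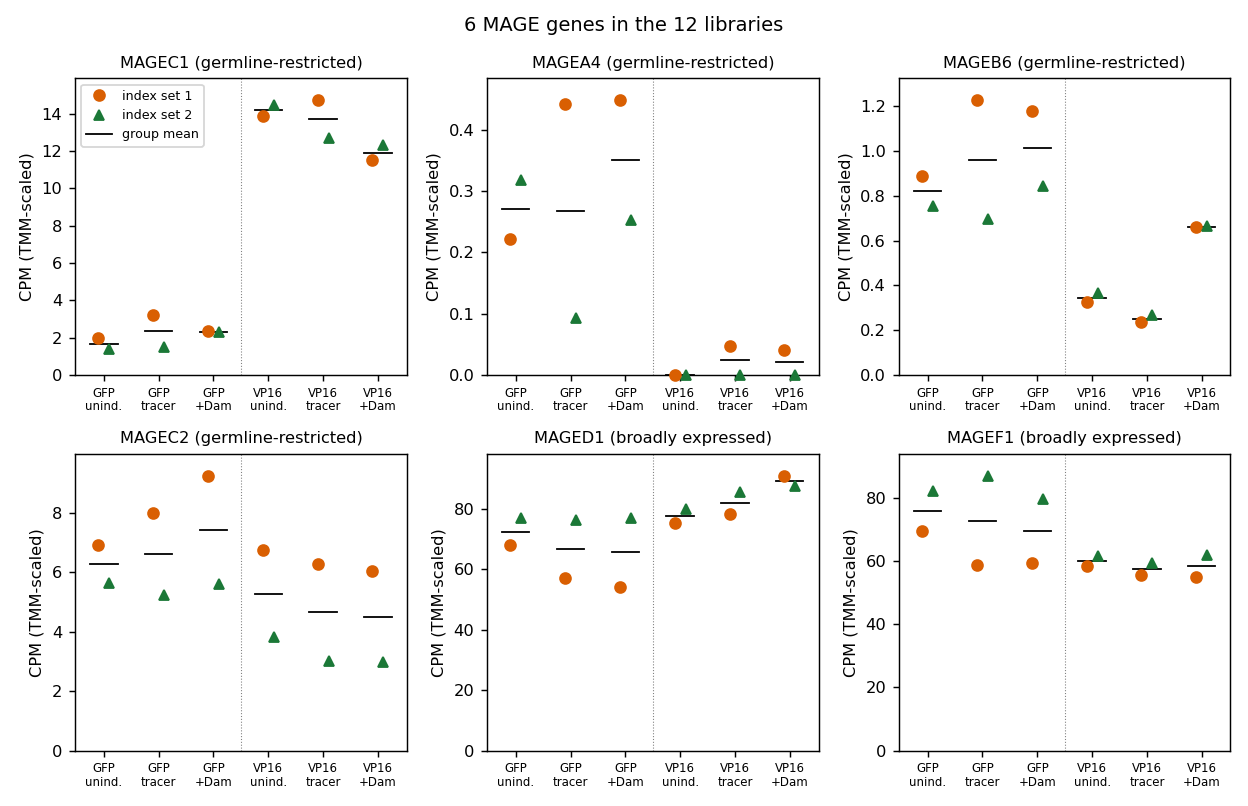
Level in CPM (scaled by TMM) of 6 MAGE genes in the 12 libraries by group, with index set 1 as circles, index set 2 as triangles and the mean of each group of 2 as a line. MAGEC1 is at 11.5 to 14.7 CPM in the VP16 clone and 1.39 to 3.24 CPM in the GFP clone, and MAGEC2 is higher in index set 1 in every group.

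The other members differed less. The 9 germline-restricted members without a call had log2 differences from -0.49 to 0.17 with SEs from 0.07 to 0.28, and the 5 broadly expressed members from -0.31 (MAGEF1) to 0.62 (MAGEE1) with SEs from 0.10 to 0.35. The most abundant germline-restricted members had small differences: 0.17 ± 0.09 for MAGEA3, 0.11 ± 0.07 for MAGEA1, -0.03 ± 0.10 for MAGEA12 and -0.11 ± 0.11 for MAGEB2. Summing near-identical partners gave 0.15 ± 0.10 for MAGEA3 with MAGEA6 (edgeR adjusted p = 0.40) and 0.08 ± 0.14 for MAGEA2 with MAGEA2B (0.78). The median log2 difference was 0.07 over the 12 germline-restricted members, of which 7 were above 0, and 0.28 over the 5 broadly expressed members, of which 3 were. Over all tested genes it was 0.0016, with 50.2% above 0. Of the 620 tested genes on chromosome X, 12 were called higher and 38 lower.

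**Figure D3:**
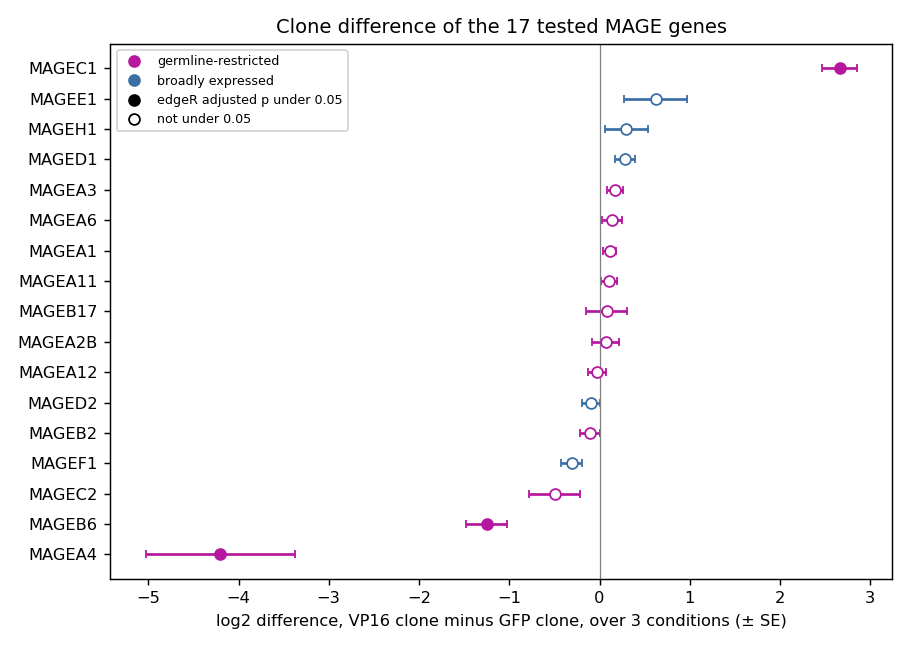
Log2 difference between the clones (VP16 minus GFP, over 3 conditions) of the 17 tested MAGE genes, with SE bars, filled where the edgeR adjusted p was under 0.05. MAGEC1 lies at 2.66, MAGEB6 at -1.25 and MAGEA4 at -4.20, and the other 14 lie between -0.49 and 0.62. MAGEA4 was tested only through its GFP libraries, so its filled point is a description.

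When the index set was used as a block, 6 members were called, and 20.9% of all tested genes (9.03% higher and 11.9% lower). MAGEC1 (2.68), MAGEA4 (-4.20) and MAGEB6 (-1.24) were joined by MAGEC2, at -0.54 (adjusted p = 0.016), MAGED1, at 0.29 (0.037), and MAGEF1, at -0.30 (0.029). MAGEC2 encodes an activator of TRIM28. When 1 library was left out under the block, MAGEC2 was called in 8 of 12 fits (edgeR adjusted p up to 0.056), MAGED1 in 3 (up to 0.14) and MAGEF1 in 3 (up to 0.11).

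Both libraries that stood apart belong to the GFP clone, and several differences moved with them. Without them and without the block, MAGEF1 was lower in the VP16 clone at -0.48 and MAGEB2 at -0.27, beside MAGEC1 (2.88) and MAGEB6 (-1.02). Calls over all genes rose in that fit too, so no count of members is read from it. MAGEA4 did not pass the filter in that set of 10 libraries. The differences of MAGEE1, MAGEH1 and MAGED1 shrank, to 0.19, -0.0032 and 0.12 without the block (0.18, -0.091 and 0.15 with it). Without the block, the median of the 5 broadly expressed members went from 0.28 to 0.01. That of the germline-restricted members went from 0.07 to -0.0015 over the 11 still tested. MAGEB17 turned from 0.08 to -0.21, and under the block to -0.33. Under the block MAGEC2 was at -0.57, MAGEB2 at -0.27 and MAGEF1 at -0.43.

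No tested neighbour of the called members was called without the block. Within 500 kb of the start of MAGEC1, MAGEC2 was the only other tested gene, and it was lower in the VP16 clone (4.81 ± 1.73 against 6.78 ± 1.58 CPM, SD, n = 6). MAGEC3, the next gene, had 38 counts in the GFP clone and 17 in the VP16 clone, a ratio of VP16 to GFP clone of 0.472 (exact 95% interval 0.250 to 0.856), which was not called when low genes were kept in the fit (edgeR adjusted p = 0.36). Beside MAGEA4 the tested genes PASD1 (-0.10), PRRG3 (0.34), GABRE (-0.45) and GABRA3 (-0.17) were not called by edgeR (adjusted p from 0.12 to 0.64), although GABRE was with the index set as a block (0.025). Beside MAGEB6 the tested genes RP11-702C7.1 (-0.17) and VENTXP1 (-0.30) were not called.

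In both clones, doxycycline withdrawal, which induces the tracer, gave no called member. edgeR called 0 of 17 members and 0 of 17262 genes in each clone, with or without the index set as a block, and DESeq2 and limma-voom called 0 as well. At an unadjusted p under 0.05, edgeR gave 125 genes in the GFP clone and 72 in the VP16 clone, and none was a member. The median log2 change of the germline-restricted members was -0.13 in the GFP clone and -0.07 in the VP16 clone, with 3 of 12 above 0 in each. That of the broadly expressed members was -0.12 (1 of 5 above 0) and 0.08 (4 of 5). A fit of the 6 VP16 libraries alone with the block, added after seeing the data, called 139 genes and 0 members. At an unadjusted p under 0.05, that edgeR fit gave 1921 of 16139 genes and 1 of 16 members. The comparisons within a clone share its tracer libraries with those of Dam-LaminB1.

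In the GFP clone the 2 index sets gave different values for this change. MAGEE1, which encodes a dystrobrevin-binding protein, went from 6.92 to 1.52 CPM in index set 1 and from 6.37 to 6.64 CPM in index set 2. MAGEH1, whose product binds p75NTR, went from 4.84 to 2.31 and from 3.31 to 4.97 CPM, and MAGEB17 from 23.2 to 11.7 and from 21.0 to 22.3 CPM. The tracer library of index set 1 is 1 of those that stood apart. On the log2 scale with a prior count of 2, the 11 germline-restricted members other than MAGEA4 ranged from -0.98 to 0.70 in index set 1 and from -0.15 to 0.09 in index set 2. In the VP16 clone they ranged from -0.40 to 0.08 and from -0.50 to 0.11. MAGEA2B had the lowest value of these 11 in index set 2 of the GFP clone and in both sets of the VP16 clone, at -0.15, -0.40 and -0.50, and its counts share reads with MAGEA2.

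**Figure D4:**
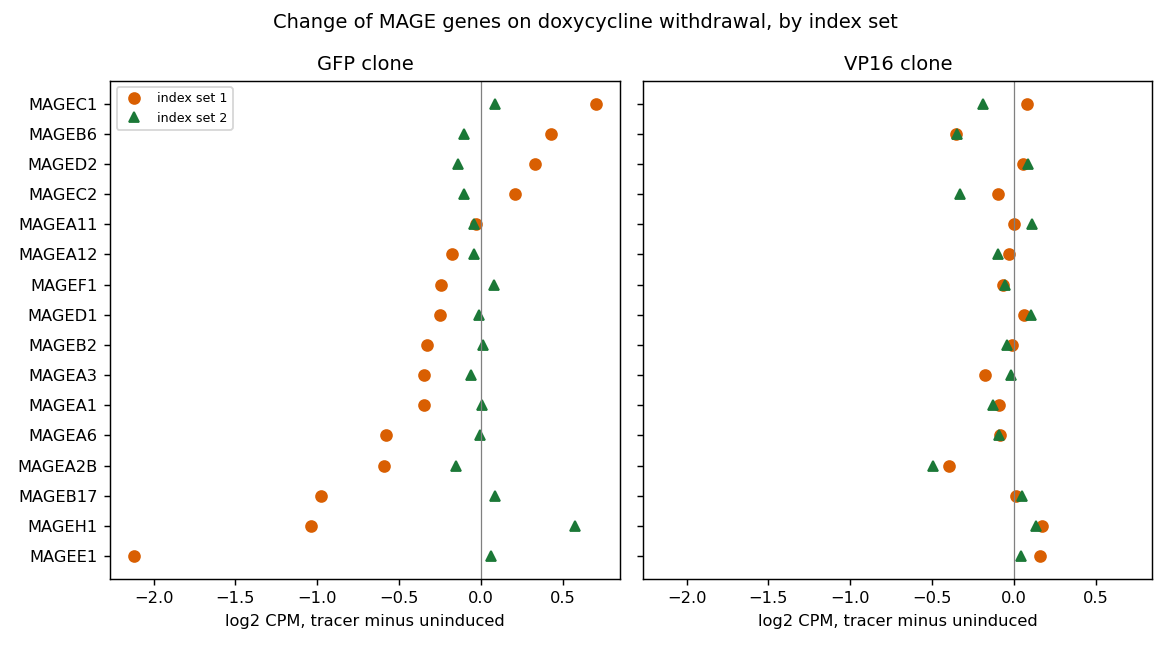
Change in log2 CPM from uninduced to tracer in each clone for 16 tested MAGE genes (MAGEA4, at 0 to 11 counts, is left out), index set 1 as circles and index set 2 as triangles. In the GFP clone index set 1 spans -2.12 to 0.70 and index set 2 spans -0.15 to 0.57, and in the VP16 clone all values lie between -0.50 and 0.17.

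Stabilising Dam-LaminB1 with Shield1 likewise gave 0 called members and 0 called genes by edgeR in either clone, with or without the block, and 0 by DESeq2 and limma-voom. At an unadjusted p under 0.05, edgeR gave 80 genes and no member in the GFP clone, and 53 genes in the VP16 clone, MAGEB6 among them. In the VP16 clone MAGEB6 was at 0.661 and 0.664 CPM with Dam-LaminB1, above the 0.236 and 0.267 CPM of the tracer libraries and the 0.326 and 0.365 CPM of the uninduced ones. These values rest on 16 and 15 counts against 5 to 8. The log2 change was 1.38 ± 0.41 (edgeR unadjusted p = 0.0091, adjusted p = 1), and the fit of the 6 VP16 libraries alone with the block called 13 genes, none of them a member. At an unadjusted p under 0.05, that edgeR fit gave 1548 of 16139 genes and 6 of 16 members, which are not named here. In the GFP clone the MAGEB6 change was 0.08 ± 0.36, and the difference between clones, 1.30 ± 0.55, had an unadjusted p of 0.042 and an adjusted p of 1. MAGEE1 was at 9.21 and 9.34 CPM in the VP16 libraries with Dam-LaminB1 and at 6.46 to 7.22 CPM in the other 4, a log2 change of 0.39 ± 0.60 in the fit over 12 libraries (adjusted p = 1).

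The fitted changes of the broadly expressed members were all above 0 in this comparison in the VP16 clone (median 0.12, 5 of 5). Those of the germline-restricted members were mostly below (median -0.06, 3 of 12 above 0), with 51.0% of all tested genes above 0. Within each index set 4 of the 5 broadly expressed members were above 0. MAGEF1 was at -0.018 in set 1 and MAGEH1 at -0.065 in set 2 (log2 CPM). In the GFP clone the medians were -0.02 (2 of 5) and -0.04 (4 of 12). For the difference between clones in the tracer change and in the Dam-LaminB1 change, edgeR, DESeq2 and limma-voom called 0 members and 0 genes; edgeR gave 94 and 50 genes at an unadjusted p under 0.05, including 0 members and 1 member.

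More members were called between the index sets than between the conditions. In the fit with group and index set, 4 of 17 members were called, against 28.2% of all tested genes (15.6% higher and 12.6% lower in set 1), a share of members near the background. MAGEC2, MAGEA12 and MAGEA11 were higher in index set 1, and MAGEF1 was lower. For 2 of 17 members, MAGEC2 and MAGEA12, all 6 libraries of index set 1 lay above all 6 of index set 2, and 14.6% of all tested genes had no overlap in either direction.

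MAGEC2, at chrX:141290131-141293076 on GRCh37, had 6.92, 8.00 and 9.24 CPM in the GFP uninduced, tracer and Dam-LaminB1 libraries of index set 1, and 6.74, 6.28 and 6.03 CPM in those of the VP16 clone. In index set 2 it had 5.66, 5.25 and 5.61 CPM in the GFP clone and 3.83, 3.03 and 2.97 CPM in the VP16 clone. The lowest library of index set 1 was thus above the highest of index set 2. The difference between sets was 0.74 ± 0.12 on the log2 scale, 1.67-fold (edgeR adjusted p = 0.0037), and held in all 12 fits that left out 1 library. Within the sets, the clone difference of MAGEC2 averaged -0.33 in set 1 and -0.74 in set 2.

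MAGEA12 was 0.23 ± 0.05 higher on the log2 scale in index set 1 (edgeR adjusted p = 0.012), at 89.5 to 108 CPM there and 79.6 to 88.3 CPM in index set 2. The differences of MAGEA11, 0.18 ± 0.05 (adjusted p = 0.027), and MAGEF1, -0.26 ± 0.08 (0.036), were smaller, and the sets overlapped. The MAGEA11 call ended in all 12 fits that left out 1 library (adjusted p from 0.064 to 0.11), the MAGEF1 call in 8 and the MAGEA12 call in 5. MAGEC1, the member with the smallest p between clones, was not called between index sets (0.23 ± 0.16, adjusted p = 0.31). The median was 0.11 over germline-restricted members, -0.21 over broadly expressed members and 0.01 over all tested genes. Without both libraries that stood apart it was 0.16 over 11 germline-restricted members and 0.02 over the 5 broadly expressed members, so that the latter turned direction. In that fit MAGEA12 was at 0.26, MAGEA11 at 0.18 and MAGEF1 at -0.15. MAGEA3 was at 0.15, MAGEA6 at 0.16 and MAGEB17 at 0.33, against 0.04, -0.02 and -0.09 over all 12 libraries.

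**Figure D5:**
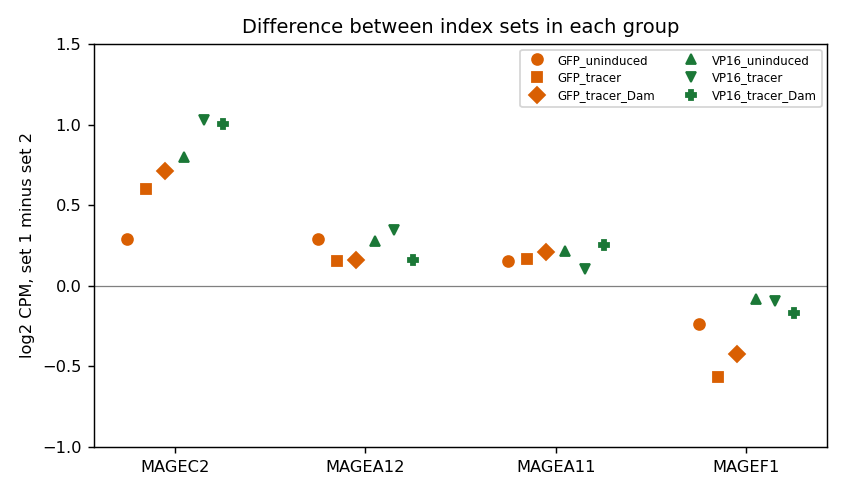
Difference in log2 CPM between index sets (set 1 minus set 2) in each of the 6 groups for the 4 MAGE genes called between sets. MAGEC2 is above 0 in all 6 groups (0.29 to 1.03), as are MAGEA12 and MAGEA11, and MAGEF1 is below 0 in all 6.

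Genes related to the family were called between clones at a share near the background: 4 of 58 tested genes on 5 lists, or 6.90%, against 7.64% of all tested genes, and with the block 20.7% against 20.9%. Of 23 genes for MAGE-binding ubiquitin ligases, their partners and substrates, 22 were tested, and edgeR called 0 higher and 2 lower in the VP16 clone. LNX1, a RING ligase, was among them, at 2.19 ± 0.37 against 4.34 ± 0.63 CPM (SD, n = 6; log2 difference -0.98, edgeR adjusted p = 0.011). Under the block, VPS29, a retromer subunit (edgeR adjusted p = 0.033), and MSX2, a homeobox transcription factor (0.037), were also called, both higher. TRIM28, the ligase bound by MAGEA3, MAGEA6 and MAGEC2, was at 963 ± 63.9 against 801 ± 162 CPM and not called (0.27, adjusted p = 0.23). The other genes with a MAGE homology domain, NDNL2 (-0.21) and TRO (-0.08), were not called.

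Among 15 genes for silencing factors, HDAC1, a histone deacetylase, was higher in the VP16 clone (223 ± 11.9 against 153 ± 24.96 CPM, log2 difference 0.55, edgeR adjusted p = 0.024). Under the block, 5 of the 15 were called higher and 1 lower, beside 9.03% and 11.9% of all tested genes. HDAC1, KDM1A, HDAC2, PCGF6 and the DNA methyltransferase gene DNMT3B (0.76, edgeR adjusted p = 0.042) were higher, and MGA was lower. Without the block DNMT3B was at 0.72 and not called (edgeR adjusted p = 0.13). DNMT1, the maintenance DNA methyltransferase, averaged 468 CPM in the VP16 clone and 400 CPM in the GFP clone (0.23, adjusted p = 0.44). Of 32 other X-linked cancer-testis genes 12 were tested and none was called (median log2 difference 0.04), with 1, GAGE1, called higher with the block. CTAG2 (0.10) and PASD1 (-0.10) had the highest levels. Of 18 autosomal germline genes counted, 7 were tested, and TEX15, needed for meiosis, was lower in the VP16 clone (0.263 ± 0.077 against 1.83 ± 0.57 CPM, -2.80, adjusted p = 0.0022). As with MAGEA4, TEX15 passed the filter on low counts through its GFP libraries alone, so its call is a description. That call is counted in the share given for the related lists.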

How the data were processed

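Trizol RNA was made into Illumina TruSeq libraries, per the labels' protocols. The submitters' processing notes name TopHat 1.4.0, Bowtie 0.12.7, HTSeq and the build GRCh37. The HTSeq version, overlap mode and strand setting were not given in the sources used here, so reads of overlapping antisense genes cannot be told apart. The deposited values are raw counts of reads per gene in 1 table, whose library totals were 18774905 to 24827396.

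Genes were kept by filterByExpr, scaled by TMM and fitted with edgeR 4.0.16 (R 4.3.3): the quasi-likelihood fit had 1 mean per group over all 12 libraries, with 6 residual degrees of freedom. P-values were adjusted by Benjamini-Hochberg over all tested genes at 0.05. The SE was the absolute log2 difference divided by the square root of F. Index sets were compared in a fit with group and index set. The sets come from the library titles, which reuse 6 index sequences; deviations from group means correlated within sets for all 15 pairs of groups (0.41 to 0.86), so the index set was used as a replicate block in an alternative, given where it changed a call. TMM-scaled CPM are given as levels; log2 CPM had a prior count of 2. Exon lengths and shared 50-base windows were taken from GENCODE v29, and promoters from RefSeq (GRCh38.p14). Intervals cover counting error only. Alternatives were RLE scaling, DESeq2 1.42.0, limma-voom (limma 3.58.1), other count filters, summed near-identical pairs, the block, only the groups compared, a test against a fold of 1.5, and leaving out libraries. Replicates were not duplicates: chi-square per degree of freedom was 19.6 to 126.3. The scripts were tested on simulated counts. No protein sequences were used here.

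The members and gene lists were chosen with earlier results of these data known. All members were named. Of each related list, up to 4 genes called between clones by smallest p were named, or else the 2 with the highest mean CPM. Further genes were chosen after their values were seen: TRIM28, VPS29, MSX2, DNMT1, DNMT3B, KDM1A, HDAC2, PCGF6, MGA, GAGE1, MMP2, ESRP1 and DCT. The motif CCGGATGT was too. Tested neighbours within 500 kb were named. The values of 1 listed gene are not reported here.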

Additional observations from a re-analysis of the deposited data

Results flagged for a closer look

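Changes of 3 members ran in opposite directions in the 2 clones in every library pair of the same index set. How many of all tested genes did so was not counted, so nothing is read from this number. For MAGEA11 the VP16 change in index set 1 was only 0.00062. None of the 3 differences between clones passed edgeR's interaction test (adjusted p = 1 for each), with 2 pairs per clone. MAGEA11 changed from uninduced to tracer by -0.03 and -0.04 in the GFP clone and by 0.00062 and 0.11 in the VP16 clone (log2 CPM), and the fitted difference between clones was 0.087 ± 0.21 (SE). MAGED1 changed by -0.25 and -0.01 in the GFP clone and by 0.06 and 0.10 in the VP16 clone, a difference of 0.20 ± 0.27. On stabilising Dam-LaminB1, MAGEC2 changed by 0.21 and 0.09 in the GFP clone and by -0.06 and -0.03 in the VP16 clone, a difference of -0.21 ± 0.69.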

How the results depend on the processing

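Depth limits MAGEA4, MAGEB6 and the 10 members that were not tested: 1 count was worth 0.0398 to 0.0543 CPM. Between the clones over all conditions, 1 member was called higher and 2 lower. With the index set as a replicate block these counts were 2 and 4, and without both libraries that stood apart they were 2 and 5 with the block and 1 and 3 without it. Lower calls fell to 1 with a minimum of 1 CPM in 2 libraries, where MAGEA4 was not tested, and to 0 in a test against a fold of 1.5. Leaving out 1 library gave 1 to 2 higher and 0 to 2 lower calls, and under the block (an alternative added with the data in view) 1 to 3 and 2 to 4. Between the uninduced clones, 1 higher call became 0 with only the groups compared, where 1 of 15781 genes was called against 48 of 17262. That higher call did not hold in every fit that left out 1 library, with or without the block. Under the block, more members and more genes were called without both libraries that stood apart. Between index sets, 3 members were called higher and 1 lower, among 4869 calls over 17262 genes. Not all of these member calls held when 1 library was left out. More members and more genes were called without both libraries that stood apart. Calls over all genes changed with these settings too, so these counts of members are not read as a trait of the family. The causes were not tested.

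Without both libraries that stood apart and with the block, the clone difference changed sign for MAGEA2B (-0.13), MAGEA6 (-0.054), MAGEB17 (-0.33), MAGED2 (0.0072) and MAGEH1 (-0.091). Without the block it did so for MAGEA2B (-0.056), MAGEA12 (0.0082), MAGEA6 (-0.0015), MAGEB17 (-0.21), MAGED2 (0.014) and MAGEH1 (-0.0032). The index-set difference changed sign for MAGEA1 (0.045), MAGEA6 (0.16), MAGEB17 (0.33), MAGEE1 (0.022) and MAGEH1 (0.27). Over all genes, the clones gave 1318 calls, 3609 with the block, 2201 with DESeq2 and 1252 with limma-voom; the uninduced clones gave 48, 327, 297 and 33. For both clones' tracer and Dam-LaminB1 changes and their differences, no member was called under any alternative run. A fit of the 6 VP16 libraries alone with the block called 139 and 13 genes for these changes, against 0.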

Other observations

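In the GFP_tracer and GFP_tracer_Dam libraries of index set 1, several members lay outside the range of the other 10 libraries. These libraries stood apart over all genes, and the share of all tested genes outside that range was not counted. The values below are therefore not read as a trait of the MAGE members. MAGEB2 was at 143 and 121 CPM there and at 152 to 191 CPM elsewhere. MAGEB17 was at 11.7 and 11.1 CPM against 16.2 to 25.7 CPM, MAGEE1 at 1.52 and 2.28 against 6.37 to 9.34 CPM, and MAGEH1 at 2.31 and 2.16 against 3.31 to 5.29 CPM. MAGED1 was at 57.0 and 54.2 CPM against 67.9 to 90.8 CPM. The germline-restricted MAGEC2 was at 8.00 and 9.24 CPM, above the 2.97 to 6.92 CPM of the others, and MAGEB6 at 1.23 and 1.18 CPM was above their 0.236 to 0.888 CPM. Of the abundant MAGEA genes, MAGEA1 was at 68.4 and 65.3 CPM against 76.2 to 88.3 CPM, MAGEA3 at 67.2 and 53.0 against 68.1 to 89.1 CPM, and MAGEA6 at 50.6 and 41.0 against 56.5 to 75.8 CPM. MAGEA4 was at 0.442 and 0.448 CPM, above the 0 to 0.319 CPM of the others. These libraries were singled out after their values were seen, so no test is given.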
